A study of Saccharomyces cerevisiae with 12 samples.

Results

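The data were RNA-seq libraries of the budding yeast Saccharomyces cerevisiae, strain BY4741, and the quantity described here is how far deletion of SBP1 altered the response of each gene to sodium azide. For every gene the azide response of wild type, a log2 fold change of azide over untreated cells, was subtracted from the azide response of the sbp1 deletion strain (Δsbp1). A negative difference therefore means a lower azide response in Δsbp1, either a deeper fall or a smaller rise. All 6352 genes in the tables were included, and 8 of the 12 libraries of the series entered the difference. The 4 groups were wild type BY4741 untreated, wild type in azide, Δsbp1 untreated and Δsbp1 in azide, with 2 libraries each. Cells grew in rich YEPD medium to an optical density at 600 nm of 0.4 to 0.5, and the treated groups then received 0.5% sodium azide for 30 min. Deletion of scd6 (Δscd6), untreated and in azide, made up the other libraries and is used here only for comparison. The labels do not say whether replicates were separate cultures, so the spread between libraries on which the p-values rest could be technical.

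Sbp1 is an RNA-binding protein with an arginine- and glycine-rich (RGG) stretch. It binds the initiation factor eIF4G, represses translation and promotes removal of the mRNA cap, and it collects in cytoplasmic RNA granules under stress. Scd6 is another RGG-motif repressor of translation that binds eIF4G. Azide blocks cytochrome c oxidase and the mitochondrial ATP synthase, lowers cellular ATP and induces RNA granules. Yeast under stress typically represses the genes that build ribosomes and induces general stress genes, many of them through STRE promoter elements bound by Msn2 and Msn4.

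The deposited tables list one fold change and p-value per gene for each comparison and a mean normalised read count, with no value per library. Levels given below are therefore group means of normalised counts, rebuilt from that mean and the fold changes, and carry no error of their own. The depth of each library is not known from these tables. The standard error (SE) of each difference was derived from the authors' fold changes and p-values, and the adjusted p comes from a two-sided normal test with Benjamini-Hochberg adjustment over the 6329 genes that had an SE. A gene passed when its adjusted p was below 0.05.

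SBP1 itself had a rebuilt level of 4379 in untreated and 3597 in azide-treated wild type. In Δsbp1 the levels were 13.9 and 46.1, which are 0.3% and 1.3% of wild type. The strain labels thus match the deleted gene. SBP1 passed the test on this residual signal, with a difference of 2.01 ± 0.44 (SE, adjusted p = 0.0014), and stays among the 35 higher genes wherever these are counted or summarised below. SCD6, intact in both strains compared, had levels of 1054 and 807 in wild type and 911 and 708 in Δsbp1, with a difference of 0.02 ± 0.36 (adjusted p = 0.98).

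Azide changed many genes in both strains. At an adjusted p below 0.05, the authors' deposited tables called 42% of genes in wild type and 54.9% in Δsbp1. Of the 2254 genes called in both strains, 2245 moved the same way. Across genes the responses correlated with Pearson's r of 0.85 and Spearman's rho of 0.83, a description over genes that are not independent. The spread of responses over genes was wider in Δsbp1, with an SD of 1.17 on the log2 scale against 0.94 in wild type and 0.99 in Δscd6. The difference itself passed the test for 141 genes, 2.23% of those tested. Of these, 106 genes (1.67%) had a lower azide response in Δsbp1 and 35 (0.553%), SBP1 included, a higher one. With group totals set equal in place of the authors' normalisation, all differences moved up by 0.13 and the counts became 61 lower and 49 higher. The typical SE was 0.34, the smallest difference that passed was 0.94 in size, and 984 genes had an unadjusted p below 0.05, so differences under about 1 were not detectable for most genes.

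**Figure D1:**
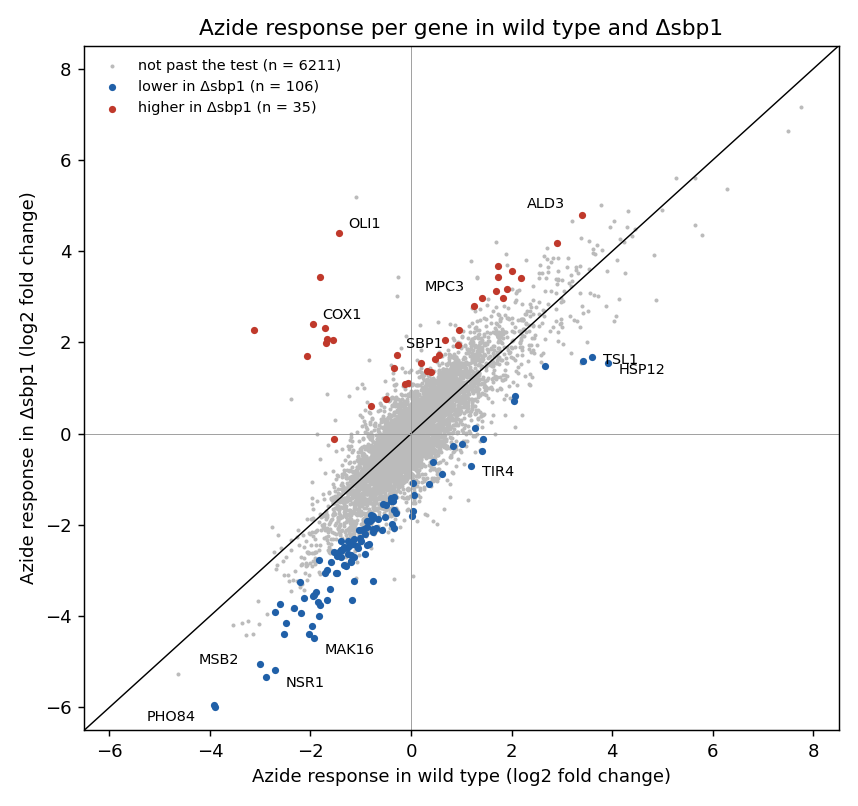
Azide response of each gene (log2 fold change) in wild type on the horizontal axis and in Δsbp1 on the vertical axis, with the line of equal response. Blue points are the 106 genes with a lower and red points the genes with a higher response in Δsbp1. Most points follow the line, blue points lie mainly at lower left below it, and mitochondrially encoded genes such as COX1 lie at upper left.

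Among the 106 lower genes, 76 fell in both strains but further in Δsbp1, and 17 fell in Δsbp1 without passing in wild type. Over all genes the authors' deposited tables called a fall for 20.6% in wild type and 27.4% in Δsbp1, and a rise for 21.3% and 27.5%. Another 6 rose in both strains but less in Δsbp1, and 5 passed as a rise in wild type alone. The last 2, the cell wall mannoprotein gene TIR4 and the heat-shock-factor-like gene HMS2, rose in wild type and fell in Δsbp1. Both also fell in Δscd6, with log2 fold changes of -1.62 and -0.93. Of the 35 higher genes, 15 rose in both strains, 11 passed as a rise in Δsbp1 alone, 7 fell in wild type and rose in Δsbp1, and 2 passed only as a fall in wild type. In all, 9 genes passed in both strains in opposite directions. The other 7 of these were COX1 and frames inside its introns.

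Genes that build ribosomes made up the largest group among the lists examined. Assembly of the small subunit takes place on the nascent 35S transcript in the small-subunit processome, the large subunit is assembled by a separate set of factors, and RNA polymerase I makes the ribosomal RNA. Of 66 factors of the small-subunit processome and 40S assembly, 11 had a lower azide response in Δsbp1 and none a higher one. Of 79 factors of 60S assembly, 13 were lower, and of 16 genes for RNA polymerase I and its initiation factors, 4 were lower, again with none higher. The median differences were -0.72, -0.66 and -0.84, against 0.01 over all genes. Together 28 of 161 members passed, beside 1.67% of all genes, and 144 members had a negative difference. With equal group totals 7 of the small-subunit factors and 1 of the RNA polymerase I genes passed.

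MAK16 (YAL025C), a 60S assembly factor, went from 1604 to 422 in wild type and from 1534 to 68.9 in Δsbp1. The untreated levels were close to each other and the azide levels were far apart, for a difference of -2.55 ± 0.47 (adjusted p = 8.5e-05). RIX7 (YLL034C), an AAA ATPase that removes assembly factors from pre-60S particles, went from 1248 to 308 in wild type and from 932 to 44 in Δsbp1, a difference of -2.38 ± 0.36 (adjusted p = 1.5e-07). RSA4 (YCR072C), which the ATPase Rea1 pulls from pre-60S particles, went from 918 to 235 and from 795 to 43. Its difference was -2.24 ± 0.36 (adjusted p = 1.2e-06). In each of these 3 genes the level in azide-treated Δsbp1 was the lowest of the 4 groups. REX4, a putative RNA exonuclease of ribosome assembly, went from 352 to 154 and from 264 to 37.6 (difference -1.62 ± 0.38, adjusted p = 0.0032).

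NSR1 (YGR159C), the yeast nucleolin and an RGG-motif protein needed for pre-rRNA processing, went from 7409 to 1134 in wild type and from 4939 to 136 in Δsbp1. Its difference of -2.48 ± 0.36 had an adjusted p of 3.9e-08. NOP1, the fibrillarin methyltransferase of box C/D snoRNPs, went from 17941 to 5607 and from 12468 to 998 (difference -1.96 ± 0.56, adjusted p = 0.027). NSR1 and NOP1 were the members that passed among 17 RGG-motif proteins (1.67% of all genes were lower), whose median difference was -0.21. SBP1 itself was left out of this list. UTP13 and UTP15, subunits of the processome, had differences of -1.60 ± 0.34 and -1.45 ± 0.31 (adjusted p = 7.6e-04 and 0.001). SRP40, a nucleolar serine-rich protein outside these lists that is related to Nopp140, went from 2965 to 1344 in wild type and from 2062 to 221 in Δsbp1, with a difference of -2.08 ± 0.40 (adjusted p = 1.5e-04).

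RPA135, the gene for the second-largest subunit of RNA polymerase I, went from 6560 to 2178 in wild type and from 4623 to 659 in Δsbp1 (difference -1.22 ± 0.31, adjusted p = 0.0076). RPA14, RPA12 and RPC19, the last shared with RNA polymerase III, had differences of -1.20, -1.09 and -1.07 with adjusted p of 0.019, 0.014 and 0.028. These 3 missed the threshold with equal group totals, as did NOP1, and RPA14 also missed it with a t distribution in the test.

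**Figure D2:**
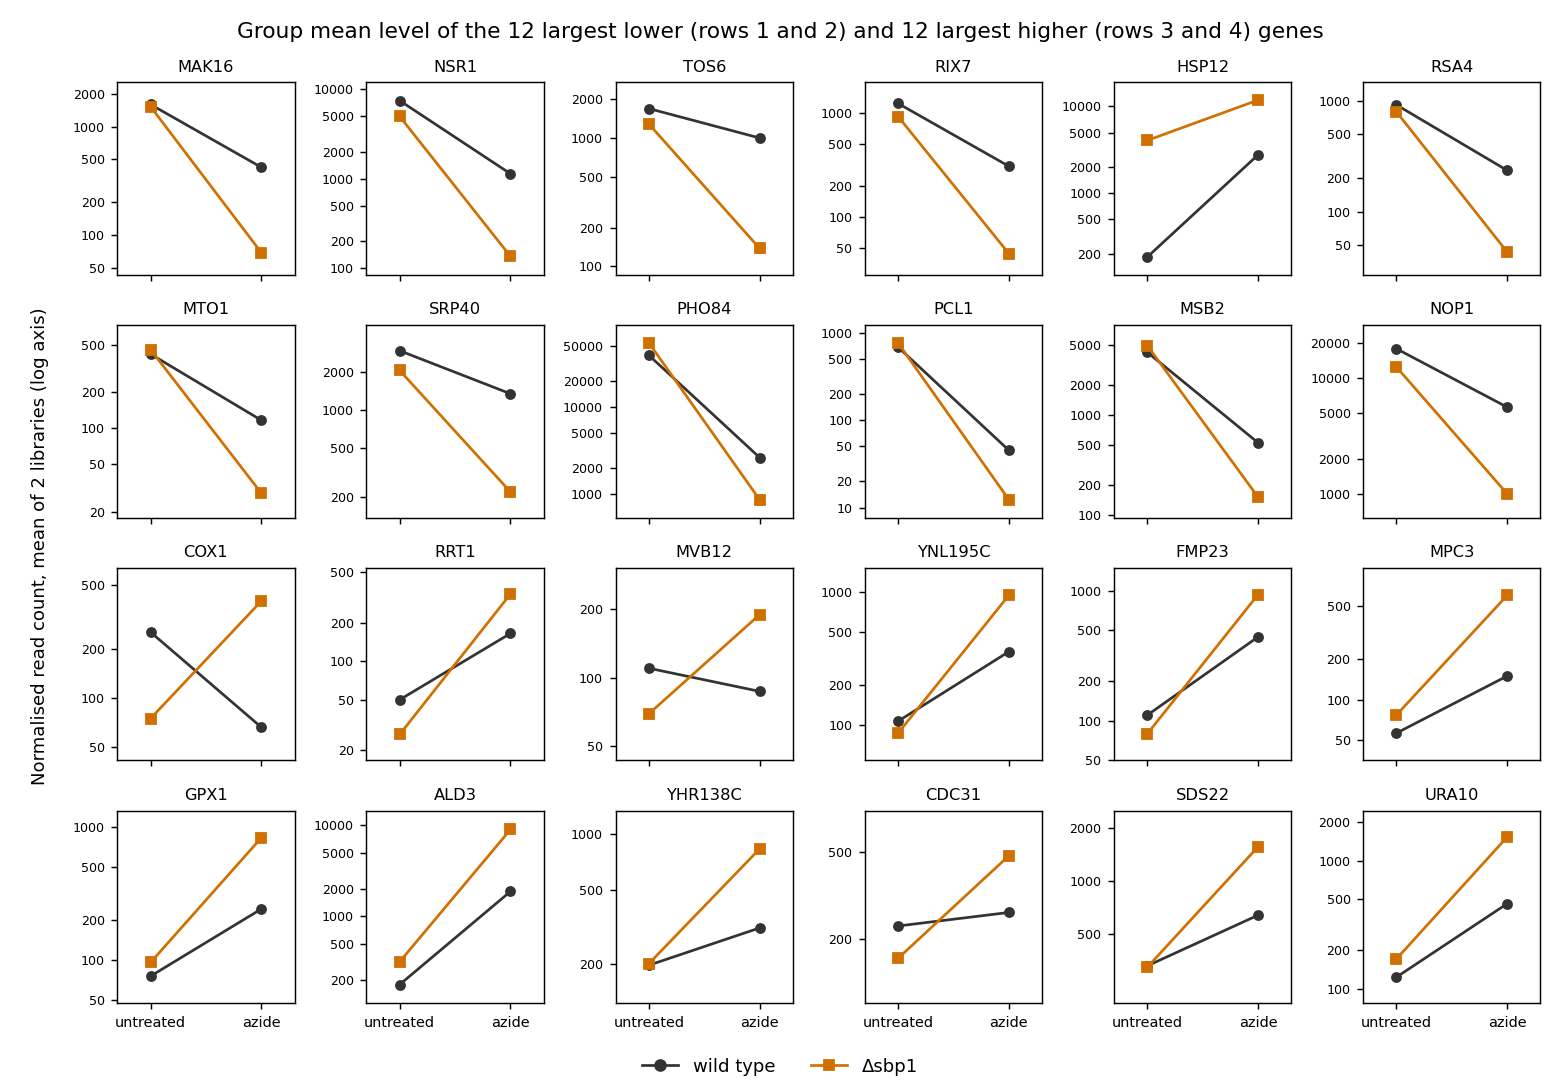
Rebuilt mean normalised read count (log axis, own scale in each panel) of untreated and azide-treated wild type (black circles) and Δsbp1 (orange squares) for the 12 genes with the largest lower and the 12 with the largest higher azide response, by the rule for named genes. In most panels the strains start close together and separate in azide, while in HSP12 they are farthest apart before treatment.

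Ribosome assembly genes commonly carry a PAC element, bound by the repressors Dot6 and Tod6, and an RRPE element, bound by Stb3. Stretches from upstream of 4 of the strongest lower genes of ribosome assembly are shown because each holds both cores close together. They are R64 reference sequence from RefSeq, coding strand, 5′ to 3′, with capitals for the PAC core GATGAG (or its complement CTCATC) and the RRPE core AAAATTTT. All 4 genes lie on the minus strand, at chrI:101254-101309, chrXII:73254-73315, chrIII:242429-242507 and chrVII:807811-807873 in the order printed.
MAK16: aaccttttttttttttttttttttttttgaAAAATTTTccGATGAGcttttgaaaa
RIX7: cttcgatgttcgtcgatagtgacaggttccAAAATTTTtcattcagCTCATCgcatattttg
RSA4: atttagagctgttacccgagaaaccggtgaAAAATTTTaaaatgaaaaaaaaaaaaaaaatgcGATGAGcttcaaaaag
NSR1: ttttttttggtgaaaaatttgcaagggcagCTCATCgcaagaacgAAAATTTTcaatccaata

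The first base of the PAC match lies at -124 from the start codon in MAK16, -123 in RIX7, -92 in RSA4 and -187 in NSR1. The RRPE match precedes it in the first 3 genes and follows it in NSR1. In the 250 bases before the start codon, on either strand, a PAC core was found in 50.0% of 98 promoters of lower genes and in 16.4% of all 5754 promoters. An RRPE core was found in 31.6% and 9.0%, and both in 25.5% and 4.3%. No PAC and RRPE matches overlapped. Within the ribosome assembly and RNA polymerase I lists, PAC cores were in 85.7% of the 28 lower members and in 85.7% of the other 133, and RRPE cores in 78.6% and 72.2%. Among the lower genes outside those lists, 35.7% of 70 promoters held a PAC core. Over all promoters, the 245 with both cores had a median difference of -0.47 and the 4542 with neither had 0.05. The 141 with both cores that belong to none of these lists had a median of -0.22, and 6 of them were lower. A match of letters is a description and no measured binding site.

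DOT6, which encodes the PAC-binding repressor, was itself among the lower genes. It went from 2782 to 7381 in wild type and from 3453 to 2661 in Δsbp1 (difference -1.78 ± 0.54, adjusted p = 0.046). Its level in azide was thus below wild type, and the call was lost with equal group totals and with a t distribution in the test. In Δscd6 the DOT6 response was -0.06, and its difference from wild type of -1.46 did not pass (adjusted p = 0.097). The DOT6 responses of Δsbp1 and Δscd6 differed by -0.32 and did not pass against each other (adjusted p = 0.85). TOD6 had levels of 553 and 329 in wild type and 383 and 112 in Δsbp1, with an adjusted p of 0.15. STB3 had a difference of -0.15 (adjusted p = 0.89) and SFP1, an activator of ribosome genes, of -0.08 (adjusted p = 0.94). TOD6, STB3 and SFP1 were looked up after the result for DOT6 was seen.

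The proteins of the ribosome itself are encoded by a separate regulon. None of the 138 cytosolic ribosomal protein genes listed passed in either direction, their median difference was 0.15 and 91 were positive. The values ran from -0.71 in RPS0B to 1.69 in RPS30B. None of 29 translation initiation factors, 16 elongation and termination factors or 20 cytosolic aminoacyl-tRNA synthetases passed, with medians of -0.19, -0.33 and 0.01. Among 36 genes of mRNA decapping and decay, the process that Sbp1 promotes, none passed and the median was 0.16, from -0.80 in the deadenylase gene CCR4 to 0.65 in LSM7. None of 20 stress granule RNA-binding proteins passed (median -0.30). Near-identical paralogs are common among ribosomal protein genes, so reads may have been divided between copies.

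**Figure D3:**
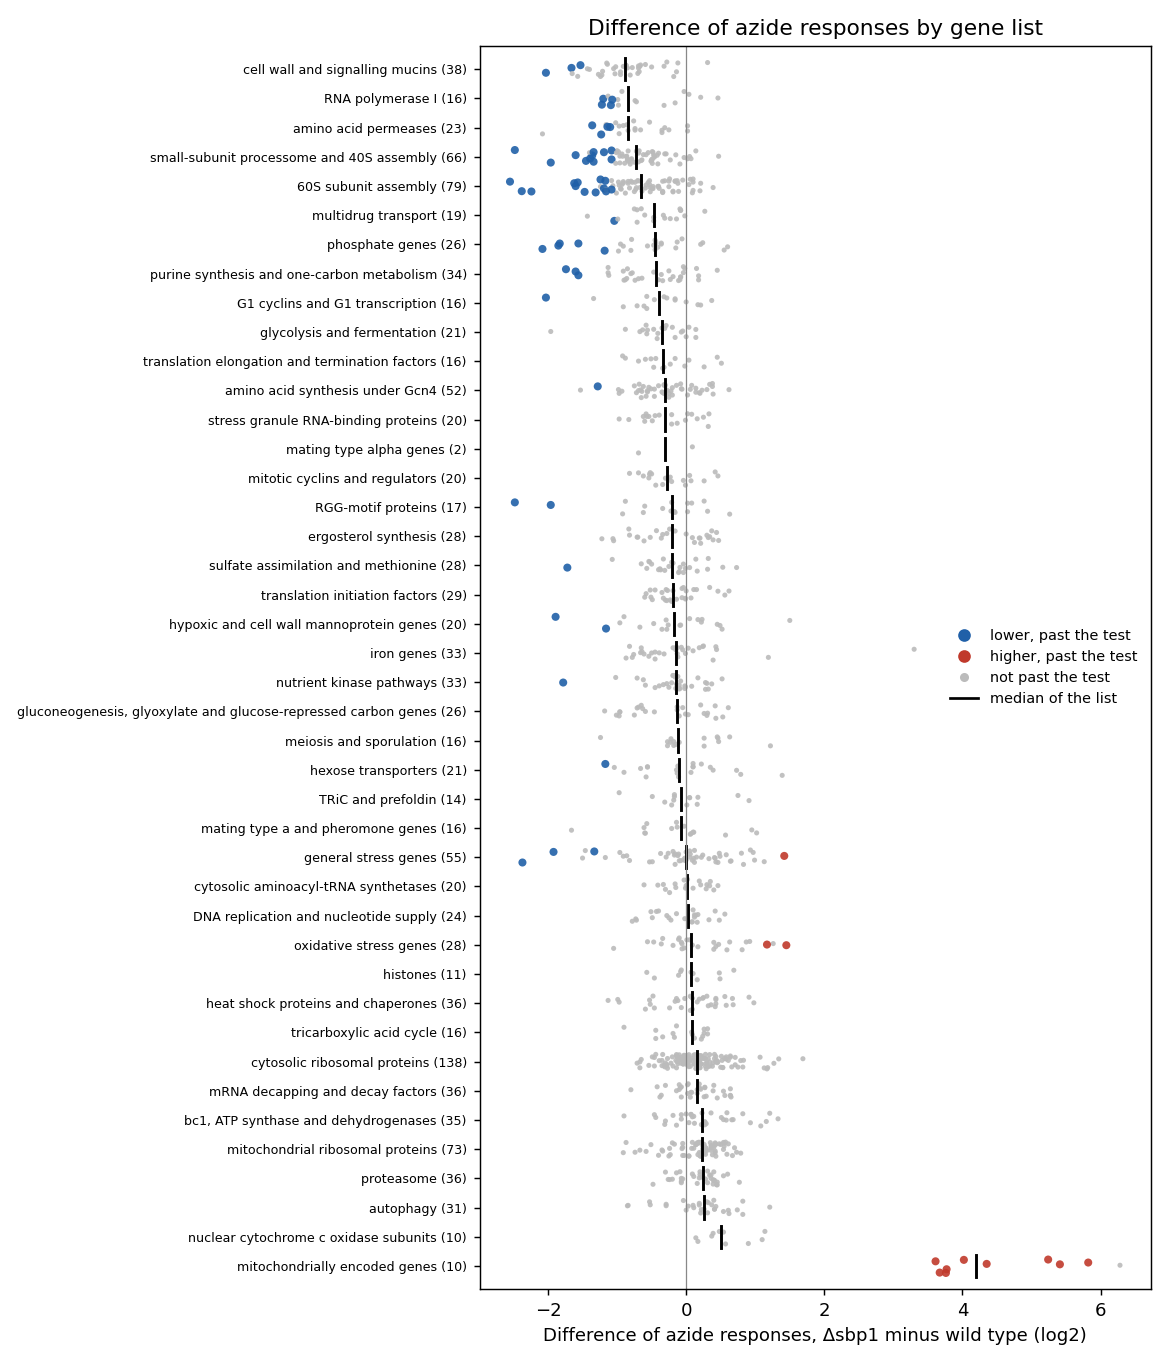
Difference of azide responses (Δsbp1 minus wild type, log2) of each member of the gene lists, with the number of members in parentheses and the list median as a bar. Blue and red points passed the test as lower and higher, and gray points did not pass. Ribosome assembly, RNA polymerase I, permease and cell wall lists lie left of zero, the 10 mitochondrially encoded genes lie between 3.61 and 6.28, and ribosomal proteins lie around 0.15.

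Several genes of phosphate uptake had lower azide responses in Δsbp1. PHO84, the high-affinity phosphate transporter, went from 39415 to 2640 in wild type and from 54632 to 867 in Δsbp1, a difference of -2.08 ± 0.55 (adjusted p = 0.012). PHO89, the sodium-coupled phosphate transporter, went from 3849 to 666 and from 3919 to 188 (difference -1.85 ± 0.41, adjusted p = 0.0014). The acid phosphatase genes PHO12 and PHO11 had differences of -1.83 ± 0.33 and -1.56 ± 0.35, and being nearly identical in sequence they may share reads. With PHO3, 5 of 26 phosphate genes were lower, beside 1.67% of all genes, and none higher, with a median of -0.45. A Pho4 core, CACGTG, was found in 23.1% of the 26 promoters of that list, in 3.1% of the promoters of lower genes and in 2.8% of all.

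Of 23 amino acid and ammonium permeases, 4 were lower (1.67% of all genes), none was higher, 21 had a negative difference and the median was -0.84. TAT1, a permease for valine, leucine, isoleucine and tyrosine, went from 6256 to 3156 in wild type and from 6405 to 1256 in Δsbp1 (difference -1.36 ± 0.30, adjusted p = 0.0014). AGP1, a broad-range permease, was induced in both strains, from 1571 to 6586 and from 2248 to 4007 (difference -1.23 ± 0.37, adjusted p = 0.038). The ammonium permease MEP3 and the tryptophan permease TAT2 had differences of -1.14 and -1.10 with adjusted p of 0.014 and 0.035. AGP1 and TAT2 were lost with equal group totals, which left 2 permeases, and with the t distribution 1 was left.

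In the purine and one-carbon list 3 of 34 genes were lower, against 1.67% of all genes, none was higher, and the median was -0.44. The 3 genes concern pyrimidines or base uptake and not purine synthesis: URA7 encodes CTP synthase, FUI1 a uridine permease and FCY2 a purine-cytosine permease. URA7 went from 3885 to 859 in wild type and from 3151 to 209 in Δsbp1 (difference -1.74 ± 0.34, adjusted p = 1.5e-04). FUI1 and FCY2 had differences of -1.60 ± 0.33 and -1.56 ± 0.33 (adjusted p = 7.5e-04 for both). Of 52 amino acid synthesis genes controlled by Gcn4, ILV1 (threonine deaminase) passed, with -1.28 ± 0.31 (adjusted p = 0.0038). Of 28 sulfate and methionine genes, SAM1 (S-adenosylmethionine synthetase) passed, going from 13012 to 6939 and from 10657 to 1723 (difference -1.72 ± 0.46, adjusted p = 0.016).

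Of 38 cell wall and signalling mucin genes, 37 had a negative difference, with a median of -0.89, and 3 passed as lower, against 1.67% of all genes. MSB2, a mucin at the head of the filamentous growth and osmosensing pathways, went from 4276 to 532 in wild type and from 4987 to 152 in Δsbp1 (difference -2.03 ± 0.43, adjusted p = 7.8e-04). EXG1, the major exo-1,3-beta-glucanase, stood at 19900 in untreated Δsbp1 against 13220 in wild type, which did not pass (adjusted p = 0.24 in the authors' deposited table). In azide it stood at 1116 against 2352, for a difference of -1.66 ± 0.37 (adjusted p = 0.0014). CRH1, a chitin transglycosylase, had a difference of -1.53 ± 0.44 (adjusted p = 0.028). TOS6, a cell wall protein gene, went from 1691 to 998 and from 1281 to 138 (difference -2.46 ± 0.73, adjusted p = 0.037). CRH1 and TOS6 were lost with equal group totals and with the t distribution.

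In other lists 1 or 2 members passed as lower, beside 1.67% of all genes. PCL1, a G1 cyclin of the kinase Pho85, went from 681 to 45.1 in wild type and from 759 to 12.3 in Δsbp1 (difference -2.03 ± 0.46, adjusted p = 0.0019), and was the one member to pass of 16 G1 genes (median -0.39). TIR4 went from 259 to 590 in wild type and from 231 to 142 in Δsbp1, so azide moved it in opposite directions (difference -1.89 ± 0.44, adjusted p = 0.003). In Δscd6 its azide response differed from wild type by -2.80 (adjusted p = 7.2e-08). The TIR4 responses of Δsbp1 and Δscd6 did not pass against each other (adjusted p = 0.25). OLE1, the fatty acid desaturase, had a difference of -1.16 (adjusted p = 0.044), and TIR4 and OLE1 were the 2 of 20 hypoxic and mannoprotein genes that passed. MTH1, a repressor of hexose transporter genes, had -1.17 (adjusted p = 0.046, 1 of 21 hexose transporter genes). In Δscd6 its difference from wild type was -1.21 (adjusted p = 0.028). The polyamine transporter TPO1 had -1.04 (adjusted p = 0.025, 1 of 19 multidrug transport genes). OLE1, MTH1 and TPO1 were lost with equal group totals and with the t distribution. MTO1, a mitochondrial tRNA modification gene, went from 419 to 117 and from 457 to 28.7 (difference -2.15 ± 0.41, adjusted p = 9.3e-05).

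No member passed in the lists of iron genes (33 members), ergosterol synthesis (28), gluconeogenesis and glucose-repressed carbon genes (26), DNA replication (24), glycolysis and fermentation (21), mitotic regulators (20), mating type a genes (16), meiosis (16), TRiC and prefoldin (14), histones (11) and mating type alpha genes (2). Their median differences ran from -0.35 in glycolysis and fermentation to 0.07 in histones. TDH1, a glyceraldehyde-3-phosphate dehydrogenase gene, had levels of 2017 and 59550 in wild type and 7548 and 57441 in Δsbp1, and its difference of -1.96 ± 0.79 had an adjusted p of 0.18. LSO1, a gene of the iron response, had a difference of 3.30 ± 1.04 with an adjusted p of 0.061, at levels of at most 22.6. Of 33 genes of nutrient kinase pathways, DOT6 alone passed (1.67% of all genes were lower), and the list median was -0.14.

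As medians over the genes that passed, more of the difference lay in azide than in untreated cells. Each difference can also be read as the strain comparison in azide minus the strain comparison without azide. For the 106 lower genes, the median of Δsbp1 over wild type was -0.16 untreated and -1.46 in azide on the log2 scale. By the adjusted p of the authors' deposited tables, 4 of them were higher and 1 lower in untreated Δsbp1, and 1 was higher and 101 lower in azide. For the 35 higher genes the medians were -0.40 and 1.40. In untreated Δsbp1, 1 was higher and 1 lower, and in azide 33 were higher and 1 lower. An untreated strain difference of at least 1 in size was seen in 8 of the 35. The mitochondrially encoded list had medians of -1.73 untreated and 2.69 in azide. Over all genes the authors' deposited tables called 1.98% between the strains untreated (1.54% higher and 0.441% lower in Δsbp1) and 21.2% in azide (9.29% higher and 11.9% lower). The azide comparison enters the difference, so these counts describe where it lies and are no separate test.

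**Figure D4:**
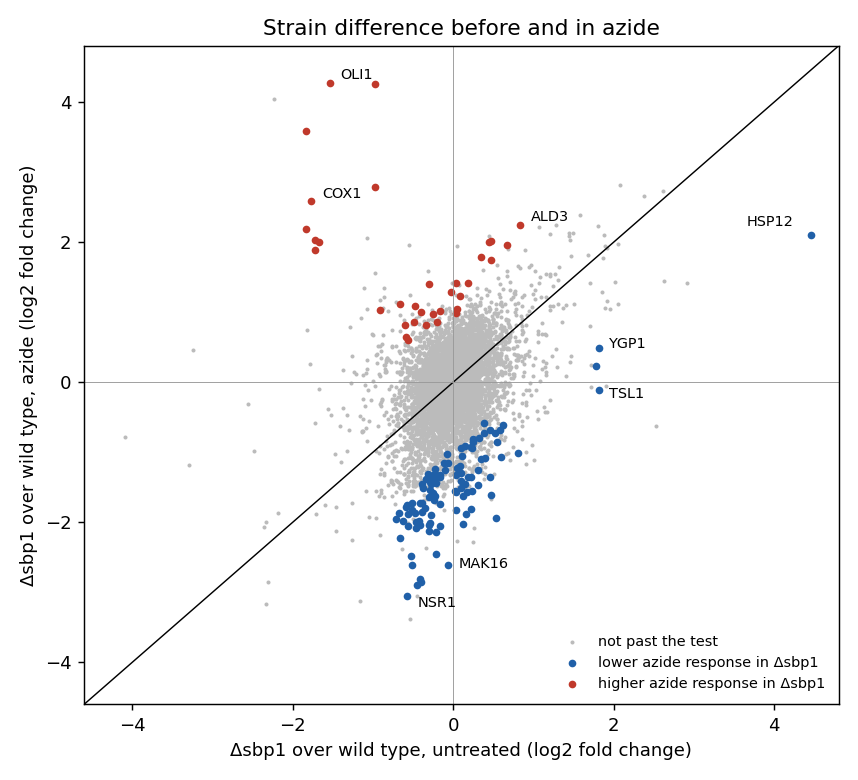
Δsbp1 over wild type (log2 fold change) without azide on the horizontal axis and in azide on the vertical axis, with the line of equality. Blue and red points are the genes with a lower and higher azide response, SBP1 left out. Most blue points lie near zero horizontally and below zero vertically, whereas HSP12, TSL1 and YGP1 lie at right, raised in untreated Δsbp1.

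General stress genes responded strongly to azide in both strains, with list medians of 2.09 in wild type and 2.04 in Δsbp1 over 55 genes, and 3 passed as lower and 1 as higher, beside 1.67% and 0.553% of all genes. Over the 55 genes, the median of Δsbp1 over wild type was 0.99 untreated and 1.02 in azide on the log2 scale. Over all genes it was -0.01 in both. The 3 lower genes were already raised in untreated Δsbp1, as was the higher gene, ALD3 (0.83, adjusted p = 0.04 in the authors' deposited table). HSP12, a small membrane-associated heat shock protein, had an untreated level of 4057 in Δsbp1 against 184 in wild type, and 11838 against 2767 in azide. It was thus higher in Δsbp1 in both conditions while its azide response was smaller (difference -2.37 ± 0.71, adjusted p = 0.039). TSL1, a subunit of trehalose synthase, stood at 3639 against 1041 untreated and at 11635 against 12600 in azide (difference -1.92 ± 0.47, adjusted p = 0.0046). YGP1, a secreted glycoprotein of nutrient limitation, stood at 6419 against 1824 untreated and 10545 against 7524 in azide (difference -1.33 ± 0.39, adjusted p = 0.037). HSP12 and YGP1 were lost with equal group totals.

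ALD3, a stress-induced cytosolic aldehyde dehydrogenase, was the general stress gene with a higher azide response. It went from 180 to 1877 in wild type and from 320 to 8933 in Δsbp1 (difference 1.42 ± 0.37, adjusted p = 0.012), and its close paralog ALD2 may share reads. Of 28 oxidative stress genes, GPX1 and TRX3 were higher (0.553% of all genes were), and both were lost with the t distribution. GPX1, a glutathione peroxidase, went from 75.2 to 242 and from 95.4 to 835 (difference 1.45 ± 0.40, adjusted p = 0.018). TRX3, the mitochondrial thioredoxin, went from 312 to 298 in wild type and from 279 to 601 in Δsbp1 (difference 1.17 ± 0.33, adjusted p = 0.021). None of 36 heat shock and chaperone genes, 36 proteasome genes or 31 autophagy genes passed, with medians of 0.09, 0.24 and 0.26.

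The other nuclear genes with the largest higher response were of mixed function. MPC3, a mitochondrial pyruvate carrier subunit of respiratory growth, went from 56.1 to 150 in wild type and from 76.7 to 602 in Δsbp1 (difference 1.55 ± 0.37, adjusted p = 0.0036). YNL195C, of unknown function, went from 107 to 355 and from 87.1 to 939 (difference 1.70 ± 0.37, adjusted p = 0.0011), and its neighbour YNL194C also passed as higher. SDS22, a regulator of protein phosphatase 1, and CDC31, the yeast centrin, had differences of 1.32 ± 0.34 and 1.34 ± 0.34 (adjusted p = 0.0081 and 0.0078). URA10, the minor orotate phosphoribosyltransferase, had 1.27 (adjusted p = 0.028), FMP23 1.56 (adjusted p = 0.028) and YHR138C 1.38 (adjusted p = 0.039). RRT1 had 1.94 ± 0.45 (adjusted p = 0.0032) and MVB12, an ESCRT-I subunit, 1.78 ± 0.54 (adjusted p = 0.049). FMP23, YHR138C, SDS22 and MVB12 were lost with the t distribution, and MVB12 also when differences were centred on the median gene.

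An STRE core, CCCCT, was found in 13 of the 22 promoters cut for higher genes (59.1%), against 19.2% of all promoters, 14.3% of lower genes and 67.3% of the general stress list. The share among azide-induced genes that did not pass was not counted. The stretch upstream of ALD3 that holds its single match is shown as an example, with the STRE in capitals (R64, chrXIII:601097-601122, minus strand).
ALD3: tgttgatcagcCCCCTtcttaagctg

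Mitochondrially encoded genes had the largest median difference of the lists. Of the 10 listed genes of the mitochondrial genome, 9 passed as higher, beside 0.553% of all genes. All 10 had a positive difference, with a median of 4.19. Their median azide response was -1.70 in wild type and 2.29 in Δsbp1. COX1, the core subunit of cytochrome c oxidase, went from 255 to 66.1 in wild type and from 74.8 to 396 in Δsbp1, so it fell in one strain and rose in the other (difference 4.35 ± 1.01, adjusted p = 0.0027). OLI1, a subunit of the ATP synthase, went from 38.8 to 14.4 and from 13.3 to 279 (difference 5.82 ± 1.45, adjusted p = 0.0068). The intron-encoded AI5_BETA and the endonuclease gene SCEI had differences of 5.41 ± 1.37 and 5.24 ± 1.21 (adjusted p = 0.0076 and 0.0027).

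These genes are not separate pieces of evidence. In the R64 annotation 6 of them lie inside COX1, mostly in its introns, so 3 lie outside it, and reads could count for more than one. VAR1, the mitochondrially encoded ribosomal protein, had the largest value, 6.28 ± 2.23, and did not pass (adjusted p = 0.11). Counts were low, and COX1 was the only one of the 10 with a mean of at least 100, so a filter at that level left 1 of 9 calls. The method of RNA selection was not stated. The Δscd6 response had a median of 1.86 over the same genes, above wild type as well. COX1 went from 59 to 210 in Δscd6. Against wild type, COX1 and AI5_BETA differed in Δscd6 by 3.78 and 6.66 (adjusted p = 0.0097 and 7.0e-04). AI1, AI2 and AI3 also passed, with 5.49, 3.58 and 3.37 (adjusted p = 2.8e-04, 0.0062 and 0.011). So did AI4 and AI5_ALPHA, with 2.81 and 2.94 (adjusted p = 0.048 and 0.045). OLI1 and SCEI had 3.36 and 3.39 in Δscd6 and did not pass (adjusted p = 0.15 and 0.07). None of the 9 called genes passed between Δsbp1 and Δscd6.

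Nuclear genes of respiration had smaller values. All 10 nuclear cytochrome c oxidase subunits had a positive difference with a median of 0.51, from 0.14 in COX5A to 1.14 in COX12, and none passed. None of 73 mitochondrial ribosomal proteins passed (median 0.23), nor did any of 35 genes of the bc1 complex, ATP synthase and dehydrogenases (median 0.23) or 16 of the tricarboxylic acid cycle (median 0.09).

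The wild-type and Δsbp1 libraries that define the difference cannot also sort genes by response without shared error, so genes were sorted by their response in Δscd6, whose libraries enter neither term. Of 1297 genes (20.4% of all) that fell in azide in Δscd6, 84.9% had a negative difference, the median was -0.52, and 90 were lower and none higher in Δsbp1. Of 1404 (22.1%) that rose, 21.7% had a negative difference, the median was 0.31, and 6 were lower and 23 higher. The 3651 genes that did not pass in Δscd6 had a median of 0.02. Among genes that fell in Δscd6 the median response was -0.72 in wild type and -1.19 in Δsbp1, and among those that rose it was 0.79 and 1.09. As medians over genes, those that fell in Δscd6 thus fell further in Δsbp1 than in wild type, and those that rose in Δscd6 rose further. Changes shared by both deletions also enter these classes. TIR4, for example, rose in wild type (1.19) and fell in Δscd6 (-1.62). With equal group totals the median differences were -0.39 for genes that fell and 0.44 for those that rose. Not every list followed this. General stress genes had median responses of 2.09 in wild type and 2.04 in Δsbp1, and cytosolic ribosomal protein genes -0.48 and -0.33.

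**Figure D5:**
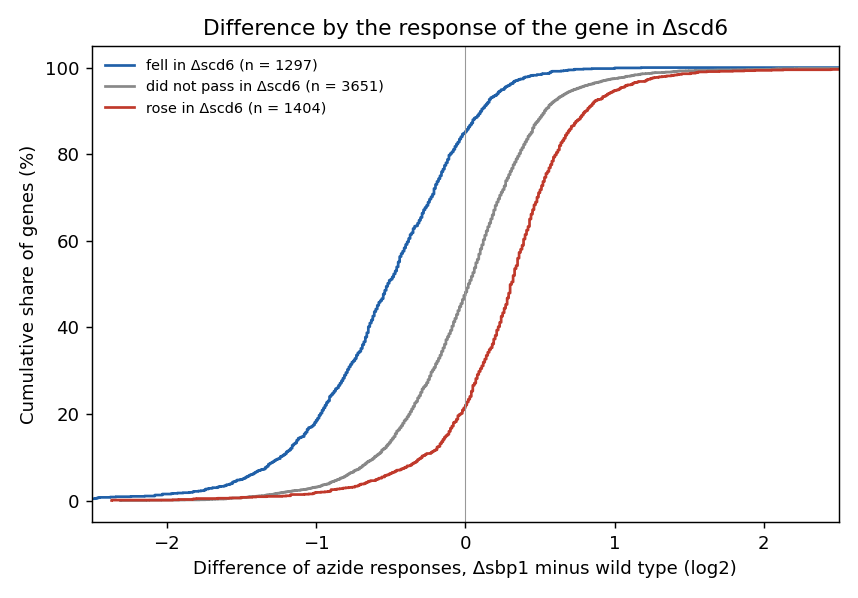
Cumulative share of genes (%) by the difference of azide responses, Δsbp1 minus wild type (log2), for genes that fell, did not pass or rose in azide in Δscd6. The curve of genes that fell lies left of zero with a median of -0.52, and the curve of genes that rose lies right of it with a median of 0.31; values beyond 2.5 in size are off the axis.

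Δscd6 also allowed the deletions to be compared directly. The azide response differed between Δsbp1 and Δscd6 for 342 of 6142 genes (5.57%), 248 lower and 94 higher in Δsbp1, a test that shares the Δsbp1 libraries with the first. Of the 106 genes lower in Δsbp1 than in wild type, 62 of the 105 that could be tested also passed against Δscd6. Of the 35 higher genes 8 did. PCL1 had the widest gap among the named genes, with -4.56 between Δsbp1 and Δscd6 (adjusted p = 3.0e-22). Its azide response in Δscd6 lay 2.53 above wild type (adjusted p = 7.4e-08) and its difference in Δsbp1 was -2.03, so both strains contribute to that gap. It was followed by HSP12 and PHO84 with -3.38 and -3.37 (adjusted p = 1.5e-04 and 6.6e-08). NSR1 and RIX7 had -3.04 and -2.80 (adjusted p = 5.2e-14 and 1.0e-11). COX1, GPX1 and SDS22 had 0.57, 0.09 and 0.40 and did not pass (adjusted p = 0.86, 0.96 and 0.62). Side by side, and sharing the wild-type libraries, the median difference from wild type over the lower genes was -0.13 for Δscd6, and over the higher genes it was 0.92. Of the 35 higher genes, 30 lay on the same side of wild type in Δscd6, and of the 106 lower genes 60 did. Both differences subtract the same wild-type response, which by itself favours the same side. The share over all genes was not counted, so these counts do not measure overlap of the deletions. Between Δscd6 and wild type, in either direction, 13 of the 35 higher and 11 of the 106 lower genes passed, and 261 of all 6352 genes.

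Genes near the threshold show where it lies. HST3, a sirtuin family gene, and MVB12 passed with differences of -0.96 and 1.78 at adjusted p of 0.046 and 0.049. MIR1, the mitochondrial phosphate carrier, and SPB1, a methyltransferase of 60S assembly, did not pass with -1.08 and -1.24 at 0.051 and 0.052. The lower genes had a median mean count of 1087 and the higher genes of 283, against 589 over all genes, and median gene lengths of 1545, 885 and 1209 bases. Among nuclear genes listed in the R64 annotation, 4 adjacent pairs passed together, each with the same direction. Genes with IDs outside it were not placed. The number of pairs expected for genes placed at random was not computed. The median difference lay between -0.22 and 0.10 on every nuclear chromosome. No source states whether counting used strand, so overlapping and antisense genes could mix, and 12 of the 141 genes have IDs that the R64 annotation used does not list.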

How the data were processed

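RNA was extracted with hot phenol and libraries were made with an NEB kit, per the labels' protocols. Per the submitters' processing notes, the tools were STAR (version 2), Picard, featureCounts and edgeR. Neither the build behind the files nor any filter or strand setting is stated. The authors deposited 7 tables of comparisons, of which 4 give the difference here. Each holds a mean normalised count (a signal averaged over libraries), a fold change as a ratio, its log2 value, and p-values with adjusted p-values, per the file headers. No counts per library were in the tables, so a count model with an interaction term could not be fitted.

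An SE was implied for each log2 fold change of at least 0.02 in size, by dividing that size by the normal deviate of the p-value. Variances were summed once over the azide responses and once over the strain comparisons, and the larger sum was used. Among 425 genes changed by over 1.5 in both strains, the variances of these sums had a median ratio of 1.05. The test was two-sided normal with Benjamini-Hochberg adjustment. It was run on simulated data drawn from the same normal model, which cannot show how it performs on read counts. Named genes were the 12 largest differences in each direction with a mean count of at least 100 and an annotation, and up to 4 per list. Members and the 42 lists were chosen with earlier results of these data known. Promoters were the 250 bases before the start codon in RefSeq R64, matched by locus tag (5764 IDs matched, 5754 promoters cut); 8 motifs were searched. Alternatives covered the variance, the distribution, normalisation and filters. Scripts ran in Python 3.11.15 with scipy 1.17.1, numpy 2.4.6 and pandas 2.3.3; figures used matplotlib 3.10.9.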

Additional observations from a re-analysis of the deposited data

Results flagged for a closer look

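Results are listed here because the azide response differed between wild type and Δsbp1 by the test of the difference itself: 106 genes had a lower and 35 a higher response in Δsbp1. Among named genes, the lower differences (log2, Δsbp1 minus wild type) were MAK16 -2.55, NSR1 -2.48, TOS6 -2.46, RIX7 -2.38, HSP12 -2.37, RSA4 -2.24, MTO1 -2.15, SRP40 -2.08, PHO84 -2.08 and PCL1 -2.03. Further lower differences on this scale were MSB2 -2.03, NOP1 -1.96, UTP13 -1.60, UTP15 -1.45, REX4 -1.62, RPA135 -1.22, RPA14 -1.20, RPA12 -1.09, RPC19 -1.07 and TSL1 -1.92. The next group of lower log2 differences was YGP1 -1.33, PHO89 -1.85, PHO12 -1.83, PHO11 -1.56, MTH1 -1.17, TIR4 -1.89, OLE1 -1.16, ILV1 -1.28, SAM1 -1.72 and URA7 -1.74. The remaining lower log2 differences were FUI1 -1.60, FCY2 -1.56, TAT1 -1.36, AGP1 -1.23, MEP3 -1.14, TAT2 -1.10, EXG1 -1.66, CRH1 -1.53, TPO1 -1.04 and DOT6 -1.78. The higher log2 differences were COX1 4.35, RRT1 1.94, MVB12 1.78, YNL195C 1.70, FMP23 1.56, MPC3 1.55, GPX1 1.45, ALD3 1.42, YHR138C 1.38 and CDC31 1.34. The other higher log2 differences were SDS22 1.32, URA10 1.27, SBP1 2.01, TRX3 1.17, OLI1 5.82, AI5_BETA 5.41 and SCEI 5.24.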

How the results depend on the processing

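The count of lower genes changed most with normalisation: equal totals of the rebuilt group means moved every difference by 0.13 and left 61 lower genes, all among the 106, and gave 49 higher ones. A t distribution with 6 degrees of freedom gave 115 lower and 43 higher genes, of which 76 and 17 were shared with the calls as reported, and 1203 genes differing between Δsbp1 and Δscd6 in place of 342. With that distribution the variances of the separate sums disagreed, with a median ratio of 0.00057. The other alternatives gave 105 or more of the 106 lower genes again. A mean count of at least 100 left 26 higher genes. No named difference reversed under any of the 7 alternatives that gave it a value; OLI1, AI5_BETA and SCEI had none with the mean count of at least 100, and FCY2 none with the variance from strain comparisons alone. No paired analysis was possible because the tables hold no values per library, and leaving out replicates was not run for the same reason. With 2 libraries per group, a single library's weight in any value is unknown, and low counts limit the mitochondrial genes most.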
